A study of Mus musculus with 17 samples.

Results

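The genes described here were 9 complement components and receptors, chosen by symbol: C1qa, C1qb, C1qc, C3, C4b, C3ar1, C5ar1, Itgam and Itgb2. All 9 were among the 20328 genes of the RNA-seq table and among the 26624 genes of the single-cell RNA-seq (scRNA-seq) table. In the promoter tables, C4b had 2 of the 11424 regions of the H3K27ac CUT&RUN table, and none of the 3582 ATAC-seq regions was assigned to any of the 9 genes. All animals were wild-type ICR mice, and the tissue was labelled as brain. They were adult females, lesioned at 8 weeks of age. The 3 groups were sham-operated healthy controls, a Parkinson's disease (PD) model and the same PD model given NDST3. The PD model was made with 1-sided injection of 6-OHDA (10 µg/µl) into the substantia nigra. NDST3 (2 µl) was injected 5 days after the lesion. Per the study's methods, lesioned mice received either saline or NDST3, so NDST3 and the delivery of its vector cannot be told apart here. The methods for these samples do not name the vector. The study made both AAV9 and lentiviral vectors for NDST3. 6-OHDA is a toxin taken up by dopaminergic neurons, NDST3 is an enzyme that modifies heparan sulfate, and the CMV promoter of these vectors is not restricted to 1 cell type. The AAV9 vector carries human NDST3, which the mouse gene table does not measure. RNA-seq had 2 sham, 1 6-OHDA and 2 6-OHDA+NDST3 libraries. The scRNA-seq values came from 1 6-OHDA and 1 6-OHDA+NDST3 library, and the sham library was not analysed here. The labels do not say whether replicate libraries came from separate animals, so p-values measure the spread between these libraries, which may be technical.

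Complement is a cascade of proteins that tag and clear cells, synapses and debris. C1q, built from the chains encoded by C1qa, C1qb and C1qc, starts the classical pathway, which cleaves C4 and then C3. Fragments of C3 and C5 are sensed by the receptors C3ar1 and C5ar1, and C3 deposited on a surface is bound by the integrin CR3, whose chains are encoded by Itgam (CD11b) and Itgb2 (CD18). In the brain C1q is made mostly by microglia, C4b is known from astrocytes and oligodendrocytes, and CR3 is a receptor of microglia and other myeloid cells.

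The C1q genes lie side by side in 18719 bases of chromosome 4 (GRCm38, chr4:136880126-136898844). RefSeq promoter windows of GRCm38.p6, from 250 bases before to 50 bases after the gene start, were given for 6 of the 9 genes. They were searched on both strands for GAGGAA, a form of the site bound by ETS factors such as PU.1 of myeloid cells, and for TTGCNNAA, a form of the C/EBP site. GAGGAA was present in 3 of the 6 windows (28.3% of 32851 promoter windows) and TTGCNNAA in 1 (10.8% of all windows). The promoters of C1qb (chr4:136886151-136886450, minus strand), C1qc (chr4:136892865-136893164, minus strand), Itgam (chr7:128062390-128062689, plus strand) and C3 (chr17:57228087-57228386, minus strand) are shown only because they hold the GAGGAA or TTGCNNAA matches. Capitals mark GAGGAA or TTGCNNAA on either strand.
C1qb: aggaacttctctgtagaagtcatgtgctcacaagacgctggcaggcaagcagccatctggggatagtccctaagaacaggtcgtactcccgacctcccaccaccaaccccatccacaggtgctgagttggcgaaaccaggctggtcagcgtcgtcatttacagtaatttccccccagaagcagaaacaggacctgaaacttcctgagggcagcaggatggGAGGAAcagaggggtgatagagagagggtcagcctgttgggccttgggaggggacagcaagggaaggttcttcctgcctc
C1qc: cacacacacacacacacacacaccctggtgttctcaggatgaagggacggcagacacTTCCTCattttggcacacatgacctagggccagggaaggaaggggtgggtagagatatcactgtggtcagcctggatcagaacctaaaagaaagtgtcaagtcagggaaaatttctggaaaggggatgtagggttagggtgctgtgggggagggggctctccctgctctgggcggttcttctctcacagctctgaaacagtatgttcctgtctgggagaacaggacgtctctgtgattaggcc
Itgam: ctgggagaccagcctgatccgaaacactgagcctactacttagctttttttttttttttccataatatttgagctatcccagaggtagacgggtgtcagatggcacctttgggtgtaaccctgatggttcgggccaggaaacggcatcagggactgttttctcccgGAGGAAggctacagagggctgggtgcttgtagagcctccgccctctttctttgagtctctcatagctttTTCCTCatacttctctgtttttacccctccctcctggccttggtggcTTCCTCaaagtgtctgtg
C3: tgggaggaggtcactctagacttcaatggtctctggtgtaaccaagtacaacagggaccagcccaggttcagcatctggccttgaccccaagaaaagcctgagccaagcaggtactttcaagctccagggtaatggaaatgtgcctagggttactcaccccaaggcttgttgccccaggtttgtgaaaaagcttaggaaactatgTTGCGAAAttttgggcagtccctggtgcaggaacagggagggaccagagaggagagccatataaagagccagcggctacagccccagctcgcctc
The GAGGAA of C1qb began 30 bases before the start, and the match in C1qc lay 193 bases before it on the other strand. Itgam held 3 matches, 84 and 15 bases before and 32 bases after the start. The C/EBP form in C3, TTGCGAAA, lay 45 bases before the start. Neither motif matched in the C3ar1 and C5ar1 windows. A match is a description of the letters and not a site of binding.

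The RNA-seq libraries held 51003699 to 70533326 counts each. Th, the rate-limiting enzyme of dopamine synthesis, stood at 115 and 135 CPM, read counts scaled to the library size, in sham, 2.15 in 6-OHDA and 11.5 and 8.02 in 6-OHDA+NDST3, lower in every lesioned library than in both sham libraries. Choroid plexus markers, 6 of 6 listed, summed to 23.3 to 59.9 CPM in the other 4 libraries and to 1146 CPM in 6-OHDA+NDST3 replicate 2, so the main counts and the differences that changed are also given without it.

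Each of the 9 complement genes was higher after 6-OHDA than in the healthy controls, by 4.73-fold (C5ar1) to 30.4-fold (C3), where 45.3% of all tested genes were higher in the 6-OHDA library than in both sham libraries. The value for C3 depended on the sham library, with a log2 fold change of 6.57 (95.2-fold) without sham replicate 1 and of 4.17 without sham replicate 2. The first question was which of them changed with the lesion. The 3 C1q genes, which encode the chains that bind the target, rose by 13.5- to 15.4-fold. C1qa was 85.3 and 47.5 CPM in the sham libraries and 1025 CPM in 6-OHDA. C1qb was 57.1 and 33.0 CPM in sham and 622 CPM in 6-OHDA. C1qc was 62.8 and 35.8 CPM in sham and 665 CPM in 6-OHDA. The 6-OHDA library thus lay far above both sham libraries for each chain, with log2 fold changes of 3.95 ± 0.38 (SE), 3.79 ± 0.35 and 3.76 ± 0.37 for C1qa, C1qb and C1qc and an adjusted p of 0.00823 for each (edgeR quasi-likelihood test, Benjamini-Hochberg over 19300 genes; 2 sham libraries against 1).

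C3, the protein on which all complement pathways converge, had the largest fold change and the largest error of the 9. It was 39.6 and 7.49 CPM in sham and 713 CPM in 6-OHDA, a log2 fold change of 4.93 ± 1.09 (adjusted p = 0.0255). The sham libraries themselves differed 5.29-fold for C3, against 1.18- to 2.39-fold for the other 8 genes. C4b, the C4 protein cleaved by the C1 complex, was 169 and 82.7 CPM in sham and 665 CPM in 6-OHDA, a log2 fold change of 2.4 ± 0.40 (adjusted p = 0.0127). C4b and its near-identical copy C4a share sequence, so the split of reads between the pair is uncertain. C4a stood at 14.4 and 7.23 CPM in sham and 44.6 CPM in 6-OHDA and rose as well (log2 fold change 2.05, adjusted p = 0.017).

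Of the receptors, C3ar1, the receptor for the C3a fragment, was 7.88 and 3.30 CPM in sham and 104 CPM in 6-OHDA (log2 fold change 4.23 ± 0.50, adjusted p = 0.00847). C5ar1, the receptor for C5a, was the lowest of the 9 at 1.11 and 0.941 CPM in sham, which were 57 and 65 counts, and 4.84 CPM (250 counts) in 6-OHDA (log2 fold change 2.24 ± 0.45, adjusted p = 0.02). The second C5a receptor, C5ar2, stood at 0.272 and 0.0579 CPM in sham and 0.62 CPM in 6-OHDA and did not pass the test (adjusted p = 0.137). Itgam was 30.1 and 21.6 CPM in sham and 214 CPM in 6-OHDA (log2 fold change 3.05 ± 0.25, adjusted p = 0.00823). Itgb2 was 14.97 and 8.25 CPM in sham and 122 CPM in 6-OHDA (log2 fold change 3.40 ± 0.41, adjusted p = 0.0085). The alternative partner chain of Itgb2 in CR4, Itgax (CD11c), went from 13.3 and 4.52 CPM in sham to 174 CPM (log2 fold change 4.3, adjusted p = 0.00974).

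**Figure D1:**
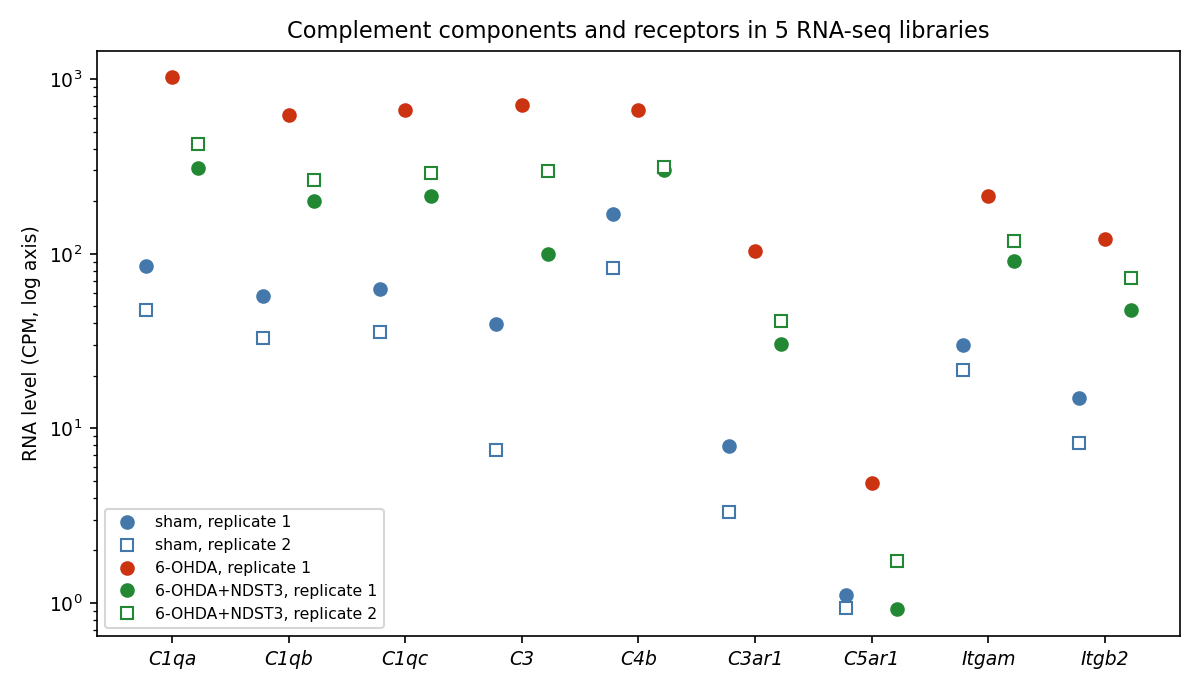
RNA level of each complement gene (CPM, log axis) in the 5 RNA-seq libraries. Each symbol is 1 library, coloured by group, with open squares for replicate 2. The 6-OHDA library is the highest for all 9 genes, for example 1025 CPM for C1qa, and C5ar1 is the lowest gene in every library.

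By adjusted p under 0.05, 9 of the 9 genes rose in 6-OHDA against sham, where 18.8% of all tested genes were called higher, and 9 rose by the study's rule of a fold change of at least 2 and an unadjusted p under 0.05, which called 14.4% of all genes higher. Their median log2 fold change was 3.76, against -0.00245 over all tested genes. The single 6-OHDA library was assumed to vary like the others. Without sham replicate 1 or without sham replicate 2, 0 of the 9 genes kept an adjusted p under 0.05 (their adjusted p lay between 0.0516 and 0.137), and 0 of all genes did, while 9 of 9 still met the study's rule, which then called 14.3% (without replicate 1) and 11.0% (without replicate 2) of all genes higher. Without sham replicate 1, C3ar1 was 31.5-fold and C4b 8.04-fold higher.

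In the NDST3-treated PD model all 9 genes were lower than in the 6-OHDA library, by 2.03-fold (Itgb2) to 3.63-fold (C5ar1), but at an adjusted p under 0.05 the count was 0 of 9. Of all tested genes, 43.2% were lower in both NDST3-treated libraries than in the 6-OHDA library. This comparison shares the 6-OHDA library with the one above. C1qa was 312 and 425 CPM in the 6-OHDA+NDST3 libraries against 1025 CPM, a log2 fold change of -1.48 ± 0.37 (adjusted p = 0.0568). C1qb was 201 and 265 CPM (log2 fold change -1.42 ± 0.34, adjusted p = 0.0535), and C1qc was 215 and 292 CPM (log2 fold change -1.39 ± 0.36, adjusted p = 0.0591). For each chain both NDST3 libraries lay below the 6-OHDA library and above both sham libraries.

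C3 was 99.8 and 299 CPM, a 3-fold gap between the replicates, and its log2 fold change was -1.84 ± 1.02 (adjusted p = 0.25), which became -2.87 without replicate 2. C4b was 299.95 and 313 CPM, close to each other (log2 fold change -1.12 ± 0.40, adjusted p = 0.112). C3ar1 was 30.5 and 41.1 CPM (log2 fold change -1.54 ± 0.48, adjusted p = 0.0848). C5ar1 was 0.924 and 1.74 CPM, or 55 and 104 counts, and its log2 fold change of -1.86 ± 0.45 (adjusted p = 0.0532) brought 1 of the NDST3 libraries below both sham libraries. Itgam was 91.4 and 118 CPM (log2 fold change -1.03 ± 0.24, adjusted p = 0.0516, the lowest of the 9), and Itgb2 was 47.5 and 72.8 CPM (log2 fold change -1.02 ± 0.40, adjusted p = 0.135). Replicate 2 was the higher NDST3 library for all 9 genes, by 1.04-fold (C4b) to 3-fold (C3).

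By the study's rule 7 of the 9 genes were called lower, all but C3 and Itgb2, where 8.37% of all genes were called lower. At adjusted p under 0.05, 6.59% of all genes were called lower. The same 7 of 9 had an unadjusted p under 0.05 in edgeR, as did 18.5% of all genes in that direction. DESeq2 called 8 of 9 by adjusted p, where it called 14.6% of all genes lower, and limma on log2(FPKM + 1) called 1, where it called 5.58% lower. Their median log2 fold change was -1.42, against 0.00287 over all genes. Without 6-OHDA+NDST3 replicate 2, the library with choroid plexus RNA, 2 of the 9 genes were called by adjusted p (7.56% of all genes lower), and without replicate 1 the study's rule called 4 (5.47% of all genes lower).

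Against sham, the NDST3-treated libraries were higher in 8 of the 9 genes without overlap, as were 26.5% of all tested genes, and C5ar1 overlapped. The fold differences were 5.56 for C1qa, 5.18 for C1qb, 5.14 for C1qc, 8.50 for C3, 2.44 for C4b, 6.45 for C3ar1, 4.05 for Itgam and 5.20 for Itgb2. C5ar1 differed by 1.30-fold (log2 0.38 ± 0.39, adjusted p = 0.69). By the study's rule 8 of 9 were called higher, all but C5ar1, where 4.78% of all genes were called higher. The value for C3 rested on single libraries, at 26.6-fold without sham replicate 1, 5.03-fold without sham replicate 2, 12.8-fold without 6-OHDA+NDST3 replicate 1 and 4.18-fold without replicate 2. C3ar1 and C4b became 10.8-fold and 3.71-fold higher without sham replicate 1. Without 6-OHDA+NDST3 replicate 2, the library with choroid plexus RNA, the study's rule called 7 of 9 higher (2.9% of all genes), the C1q genes were 4.29- to 4.63-fold higher, and C5ar1 turned to a log2 difference of -0.17. No gene of 19300 reached an adjusted p under 0.05 in edgeR (0.0%). An unadjusted p under 0.05 was reached by 8 of the 9 and by 9.82% of all genes in that direction, and DESeq2 called 7 by adjusted p, where it called 5.04% of all genes higher. The lowest adjusted p among the 9 was 0.152, and their median log2 difference was 2.37, against 0.0099 over all genes. This comparison shares its libraries with both others.

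**Figure D2:**
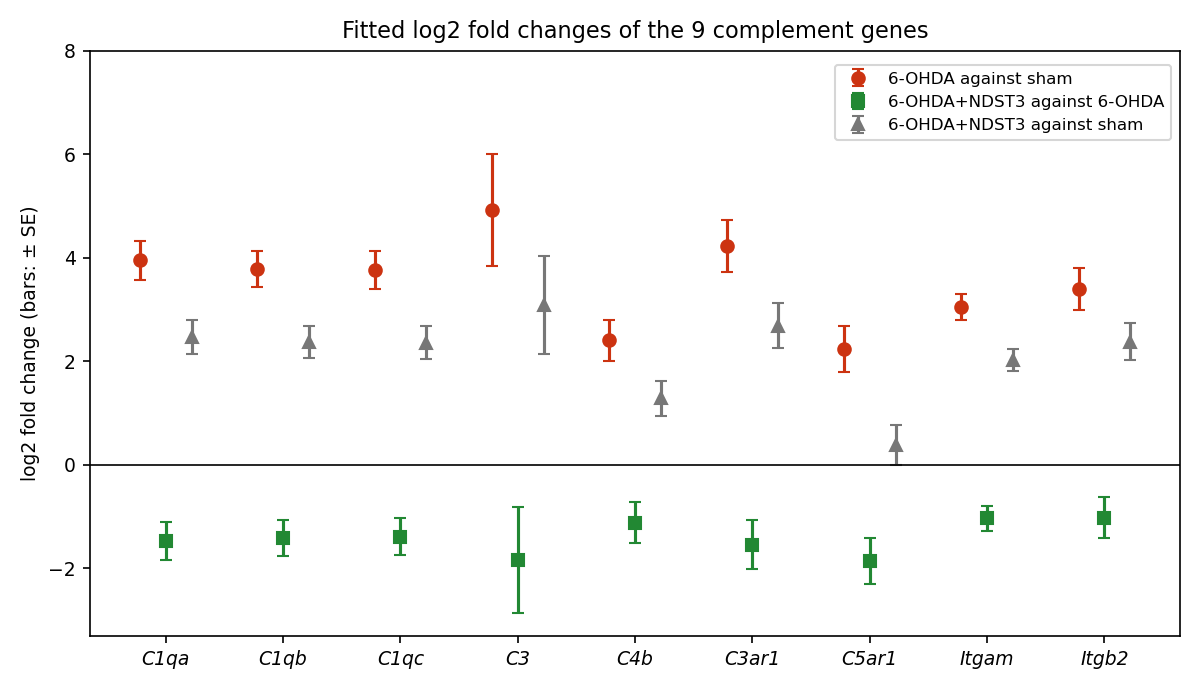
Fitted log2 fold change of each complement gene in 3 comparisons, with bars of ± 1 SE from the edgeR fit. All 9 points for 6-OHDA against sham are above 0, from 2.24 to 4.93, and all 9 points for 6-OHDA+NDST3 against 6-OHDA are below 0, from -1.86 to -1.02. C3 has the widest bars, and C5ar1 lies nearest to 0 against sham.

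Per gene length, the C1q genes were the most abundant of the set in every library. C1qa stood at 75.3 and 39.7 FPKM in sham, 893 FPKM in 6-OHDA and 266 and 379 FPKM in 6-OHDA+NDST3. The order C1qa, C1qc, C1qb was the same in all 5 libraries, and the 3 genes made up 78.2% to 85.0% of the summed FPKM of the 9. The ratio of C1qa to C1qb in FPKM lay between 1.47 and 1.68 and that of C1qc to C1qb between 1.11 and 1.15, so the chains kept nearly the same proportions while their level changed. C3 and C4b did not: the FPKM of C3 over that of C4b was 0.248 and 0.1 in sham, 1.14 in 6-OHDA and 0.353 and 1.02 in 6-OHDA+NDST3, and C3 stood above C4b in 6-OHDA and in 6-OHDA+NDST3 replicate 2 only. Itgam and Itgb2, whose proteins pair, lay within 0.972 to 1.60 of each other in FPKM, and C3ar1 and C5ar1 were the lowest 2 genes in all 5 libraries.

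Markers of several cell types moved in the same libraries as the complement genes. In bulk tissue more cells of a type and more RNA per cell cannot be told apart. Of 10 microglia markers 9 were listed (all but Aif1), and they summed to 387 to 515 CPM in sham, 2858 CPM in 6-OHDA and 1040 to 1648 CPM in 6-OHDA+NDST3, with 8 of 9 rising in 6-OHDA by adjusted p. The 9 monocyte or macrophage markers summed to 44.9 to 208, 2949 and 651 to 1115 CPM in the same order, and 4 of 9 rose. Most of these sums was Lyz2, at 23.7 to 168, 2804 and 619 to 1059 CPM. The median log2 fold change of the 9 markers was 1.12 in 6-OHDA against sham and -0.48 in 6-OHDA+NDST3 against sham. Of 8 neutrophil markers 4 were listed (S100a8, Ly6g, Retnlg and Mmp8 were not), with sums of 10.8 to 14.2, 108 and 37.8 to 67.1 CPM. Haemoglobin and other blood markers summed to 404 to 711, 1817 and 349 to 350.4 CPM, and 5 of 5 rose in 6-OHDA. Fibroblast or mural markers summed to 324 to 501, 1467 and 260 to 348 CPM, with 6 of 7 rising in 6-OHDA and 6 falling in 6-OHDA+NDST3 against 6-OHDA. Astrocyte markers summed to 5314 to 6333, 12361 and 7587 to 8253 CPM, and 4 of 8 rose. Gfap alone was 572 to 1246, 6236 and 2136 to 3052 CPM of these sums. The median log2 fold change of the 8 markers in 6-OHDA against sham was 0.51. Endothelial markers summed to 223 to 257, 346 and 204 to 226 CPM, with 4 of 6 rising and 4 falling in the same comparisons. The part of these cell types in the complement values was not tested.

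To set the complement genes beside the microglia level, each CPM was divided by the geometric mean CPM of the 9 microglia markers in the same library. C3 changed most on this log2 scale, from 0.16 and -1.72 in sham to 2.36 in 6-OHDA and 0.84 and 1.72 in 6-OHDA+NDST3. C1qa went from 1.27 and 0.94 in sham to 2.88 in 6-OHDA and 2.48 and 2.22 in 6-OHDA+NDST3. C3ar1 went from -2.17 and -2.90 in sham to -0.42 in 6-OHDA and -0.87 and -1.15 in 6-OHDA+NDST3. These 3 genes therefore stood higher per microglia marker in every lesioned library than in either sham library. The mean difference of 6-OHDA from sham was 3.14 for C3, 2.12 for C3ar1, 1.58 to 1.78 for the C1q genes, 1.23 for Itgb2 and 0.84 for Itgam. It was 0.26 for C4b and 0.01 for C5ar1, with the 6-OHDA library beside or between the sham libraries. Per microglia marker, C4b was 2.25 and 1.74 in sham, 2.26 in 6-OHDA and 2.43 and 1.78 in 6-OHDA+NDST3. C5ar1 was -5.00 and -4.71 in sham, -4.84 in 6-OHDA and -5.92 and -5.71 in 6-OHDA+NDST3, so the NDST3 libraries were the lowest.

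NDST3-treated libraries differed from 6-OHDA by -1.08 (C3) to -0.08 (Itgam) on this scale, smaller than the -1.86 to -1.02 of the fold changes above. Without 6-OHDA+NDST3 replicate 2 they ranged from -1.52 (C3) to 0.17 (C4b), with C4b and Itgam (0.09) above 0. These values depended on the choice of markers. With each of 8 microglia markers alone as the denominator, an alternative chosen after seeing the data, the difference of 6-OHDA from sham ranged from 0.95 (Fcrls) to 4.75 (Sall1) for C3, which was higher with all 8 markers. For C1qa it ranged from -0.42 (Fcrls) to 3.39 (Sall1), and C1qa, C1qb, C1qc, C3ar1, Itgam and Itgb2 were each higher with 7 of the 8, all but Fcrls. C4b was higher with 5 of the 8 and C5ar1 with 4. Between 6-OHDA+NDST3 and 6-OHDA, C3 and C5ar1 were lower with all 8, while Itgam ranged from -0.67 (Siglech) to 0.71 (Fcrls).

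**Figure D3:**
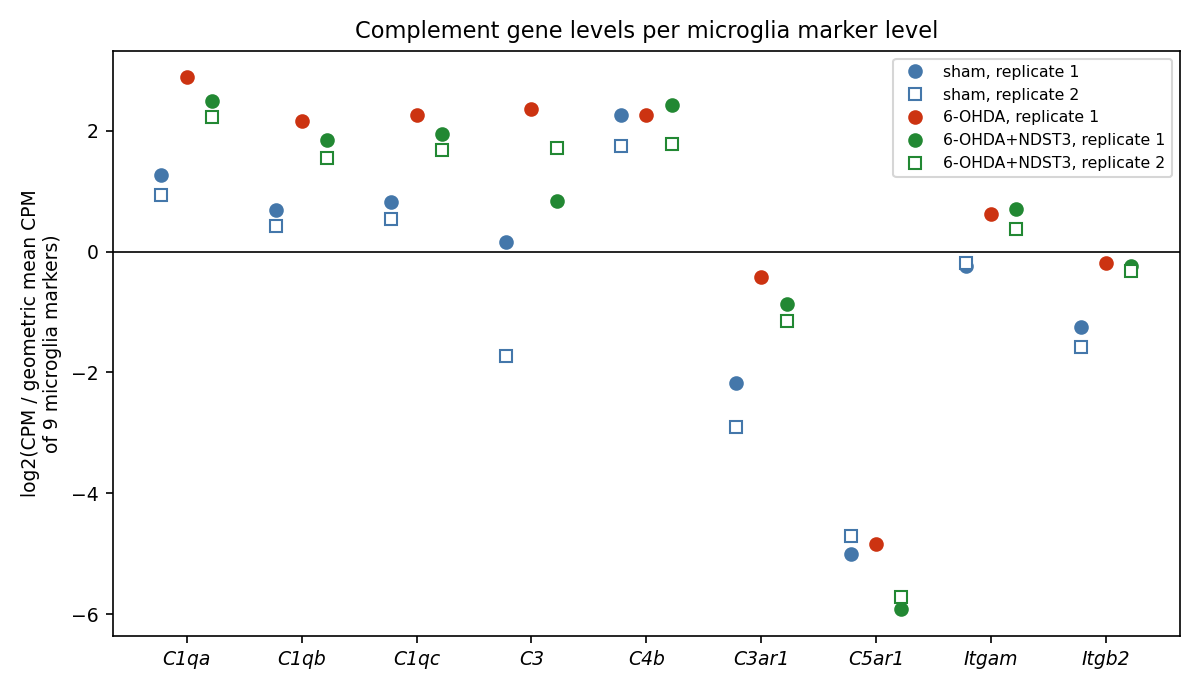
Complement gene CPM relative to the geometric mean CPM of 9 microglia markers, on a log2 axis, in the 5 RNA-seq libraries. Points for the C1q genes, C3, C3ar1, Itgam and Itgb2 are higher in every lesioned library than in both sham libraries. The points of C4b are mixed between groups, and for C5ar1 the NDST3 libraries are the lowest, at -5.92 and -5.71.

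Of the other complement pathway genes, 42 of a list of 53 were listed and all 42 were tested. In 6-OHDA against sham 18 rose and 7 fell by adjusted p (background 18.8% higher and 17.1% lower), with a median log2 fold change of 0.91. Of the 11 tested genes of the classical and lectin pathways 5 rose, including the C1 proteases that act with C1q: C1s1 (log2 fold change 4.03, adjusted p = 0.0175), C1ra (3.71, adjusted p = 0.0124) and C1rb (3.70, adjusted p = 0.00936). C2, which joins C4 to form the C3 convertase, did not pass (log2 fold change 0.89, adjusted p = 0.191), and neither did the scavenger lectin Colec12 (1.61, adjusted p = 0.0779). Of the alternative pathway, Cfb, which forms its C3 convertase, rose (3.06, adjusted p = 0.027) and so did properdin, Cfp (1.99, adjusted p = 0.00856). None of the 3 terminal pathway genes that were listed passed.

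Inhibitors and regulators moved both ways, with 7 of 17 rising and 6 falling. Cfi, which cleaves C3b, had the largest change of the list, from 0.291 and 0.217 CPM in sham to 7.78 CPM in 6-OHDA and 1.16 and 2.21 CPM in 6-OHDA+NDST3 (log2 fold change 4.94 in 6-OHDA, adjusted p = 0.00823). Serping1, the inhibitor of C1, rose by 2.09 on the log2 scale (adjusted p = 0.0327). The 6 that fell were Susd4, Sez6, Sez6l, Sez6l2, Csmd1 and Csmd3, membrane proteins known from neurons, with log2 fold changes of -1.32 (Csmd3) to -1.07 (Sez6l). Neuron markers moved with them: 10 of 10 fell, and their sum went from 7070 and 7898 CPM in sham to 2651 CPM in 6-OHDA and 6377 and 5501 CPM in 6-OHDA+NDST3. The part of neurons in these values was not tested. Of the receptors and binding partners, Cd93 rose by 2.12 on the log2 scale (adjusted p = 0.00847).

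In the NDST3-treated model against 6-OHDA, 5 of the 42 fell and 3 rose by adjusted p (background 6.59% lower and 9.06% higher). The 5 were Cfi (log2 fold change -2.21, adjusted p = 0.042), Cd93 (-1.90, adjusted p = 0.032), Cfp (-1.68, adjusted p = 0.0333), the C3b-binding regulator Cr1l (-0.79, adjusted p = 0.0435) and Cd59a, an inhibitor of the membrane attack complex (-1.06, adjusted p = 0.0344). The 3 that rose were Susd4 (1.07, adjusted p = 0.032), Sez6 (0.85, adjusted p = 0.032) and Sez6l (0.68, adjusted p = 0.0364). Against sham 0 of the 42 passed by adjusted p in edgeR, 12 had an unadjusted p under 0.05 (14.2% of all genes in both directions), and DESeq2 called 7 (6.25% of all genes). Without sham replicate 1, and likewise without sham replicate 2, calls by adjusted p were lost over all genes in both comparisons with 6-OHDA. The list's calls were lost with them. In 6-OHDA+NDST3 against 6-OHDA, leaving out 6-OHDA+NDST3 replicate 1 took away nearly all calls over all genes, and those of the list. Without 6-OHDA+NDST3 replicate 2, calls remained both over all genes and in the list. Itgal, the CD11a chain that pairs with Itgb2, was 1.75 and 0.941 CPM in sham, 9.97 CPM in 6-OHDA and 4.80 and 7.09 CPM in 6-OHDA+NDST3. Itgb1, the chain of the other integrin family, rose less than Itgb2, from 118 and 95.9 CPM in sham to 328 CPM (log2 fold change 1.62).

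The scRNA-seq table gave the mean of each gene in 9 clusters, for 1 6-OHDA and 1 6-OHDA+NDST3 library, as natural-log normalised values, so differences carry no test. Clusters are named by number, with the markers that were highest in them. Cluster 6 held the highest mean of 8 of 10 microglia markers, among them Tmem119, P2ry12 and Csf1r. It also held the highest mean of 5 of 5 blood markers, with medians of 0.348 in 6-OHDA and 0.349 in 6-OHDA+NDST3. Cluster 3 held the highest mean of Mrc1, Lyz2, Ms4a7, Cd163 and Pf4, 5 of 9 monocyte or macrophage markers, and of the microglia markers Fcrls and Aif1. The median of the 9 monocyte or macrophage markers was low there, at 0.0868 in 6-OHDA and 0.125 in 6-OHDA+NDST3. In cluster 1 it was 0.0885 and 0.085. The median of the 10 microglia markers was 1.06 and 0.792 in cluster 3 and 1.47 and 1.43 in cluster 6. Cluster 1 held 8 of 8 neutrophil markers, and cluster 4 held 8 of 8 T cell markers. Cluster 7 held 6 of 6 endothelial markers, and cluster 9 held 7 of 7 B cell markers. Cluster 2 held markers of astrocytes (7 of 8), oligodendrocytes (6 of 7) and choroid plexus (6 of 6). Cluster 2 was also highest for 7 of 10 neuron markers, but these were low. The median of the 10 neuron markers there was 0.0296 in 6-OHDA and 0.0195 in 6-OHDA+NDST3. The astrocyte medians in cluster 2 were 0.654 and 0.658. Neurons in cluster 2 are therefore not read from these values. Cluster 5 held 4 of 7 fibroblast or mural markers, and cluster 8 held 4 of 6 markers of NK or innate lymphoid cells.

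The C1q genes were highest in clusters 3 and 6. C1qa averaged 3.86 in 6-OHDA and 4.01 in 6-OHDA+NDST3 in cluster 3, and 3.71 and 3.75 in cluster 6. C1qb was 3.30 and 3.51 in cluster 3 and 3.11 and 3.20 in cluster 6. C1qc was 2.86 and 3.10 in cluster 3 and 2.76 and 2.84 in cluster 6. In the 7 other clusters the 3 genes lay between 0.241 and 1.20. Clusters 4 and 9, led by T and B cell markers, gave C1qa means of 0.575 to 0.653, cell types in which C1q is not known to be made. Cluster 8, led by NK or innate lymphoid markers, gave higher C1qa means, 1.04 in 6-OHDA and 1.20 in 6-OHDA+NDST3. Means of up to that size outside clusters 3 and 6 are therefore not read as expression.

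The receptors spread over myeloid clusters in different orders. C3ar1 was highest in cluster 6 (1.55 and 1.56 in 6-OHDA and 6-OHDA+NDST3), then cluster 3 (1.09 and 1.13), and at most 0.263 elsewhere. C5ar1 was highest in cluster 1, at 1.10 and 1.09, against 0.391 and 0.514 in cluster 6 and 0.329 and 0.489 in cluster 3. Itgam was 1.00 and 1.13 in cluster 1, 1.06 and 0.931 in cluster 6 and 0.841 and 0.721 in cluster 3. Itgb2, which pairs with several CD11 chains, was highest in cluster 1 (1.24 and 1.25) and also stood at 0.744 and 0.753 in cluster 4 and 0.639 and 0.61 in cluster 8, where Itgam was at most 0.166.

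The components C3 and C4b were low in this table. C3 was highest in cluster 1 (0.44 and 0.503), then in cluster 3 (0.172 and 0.392). C4b reached 0.214 and 0.197 in cluster 2, 0.0218 and 0.253 in cluster 3, and at most 0.0925 in any other cluster. Cluster 2, with its astrocyte and oligodendrocyte markers, was thus the highest for C4b by the mean of both libraries, while cluster 3 was higher in the 6-OHDA+NDST3 library.

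Between the libraries, in cluster 3, 7 of 9 were higher in 6-OHDA+NDST3 and 4 of 9 by at least 0.2 (C1qb by 0.211, C1qc by 0.237, C3 by 0.22 and C4b by 0.231), where 0.705% of genes with a mean of at least 0.1 were higher by that much. Itgam and Itgb2 were lower there, by -0.12 and -0.0656. In cluster 6, 8 of 9 were higher, by at most 0.123 (C5ar1), and Itgam differed by -0.129. Clusters 8 and 4, led by lymphoid markers, also had 8 of 9 and 7 of 9 higher, by at most 0.16 and 0.03. In clusters 1, 5, 7 and 9 the members higher numbered 4, 1, 3 and 4. Over all genes with a mean of at least 0.1, the median difference was 0.00385 in cluster 3, 0.00346 in cluster 6 and 0.0039 in cluster 2. The share of all genes higher or lower by any amount was not counted. In cluster 2 all 9 were lower, C1qa by -0.392 and C1qb by -0.266, where 0.336% of genes were lower by at least 0.2. C1qa was also lower by 0.2 or more in cluster 7 (-0.231, where 0.222% of genes were), and no other member and cluster passed 0.2. In 6-OHDA+NDST3 the C1qa means were 0.497 in cluster 2 and 0.629 in cluster 7, against 0.575 in cluster 4, 0.653 in cluster 9 and 1.20 in cluster 8. In 6-OHDA they were 0.888 and 0.86, against 0.621, 0.641 and 1.04. These differences in clusters 2 and 7 are given as values only. Whether they are differences of expression, and the part of free RNA in them, was not tested. For the 7 genes that were higher in cluster 3, the direction there was opposite to that of the bulk RNA. In the bulk RNA all 9 were lower in 6-OHDA+NDST3 than in 6-OHDA. The scRNA-seq values are means over the cells of a cluster, and cell numbers per cluster were not analysed here. Cells with very many detected genes had been removed by the authors to limit multiplets, and doublets could not be screened again in cluster means.

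**Figure D4:**
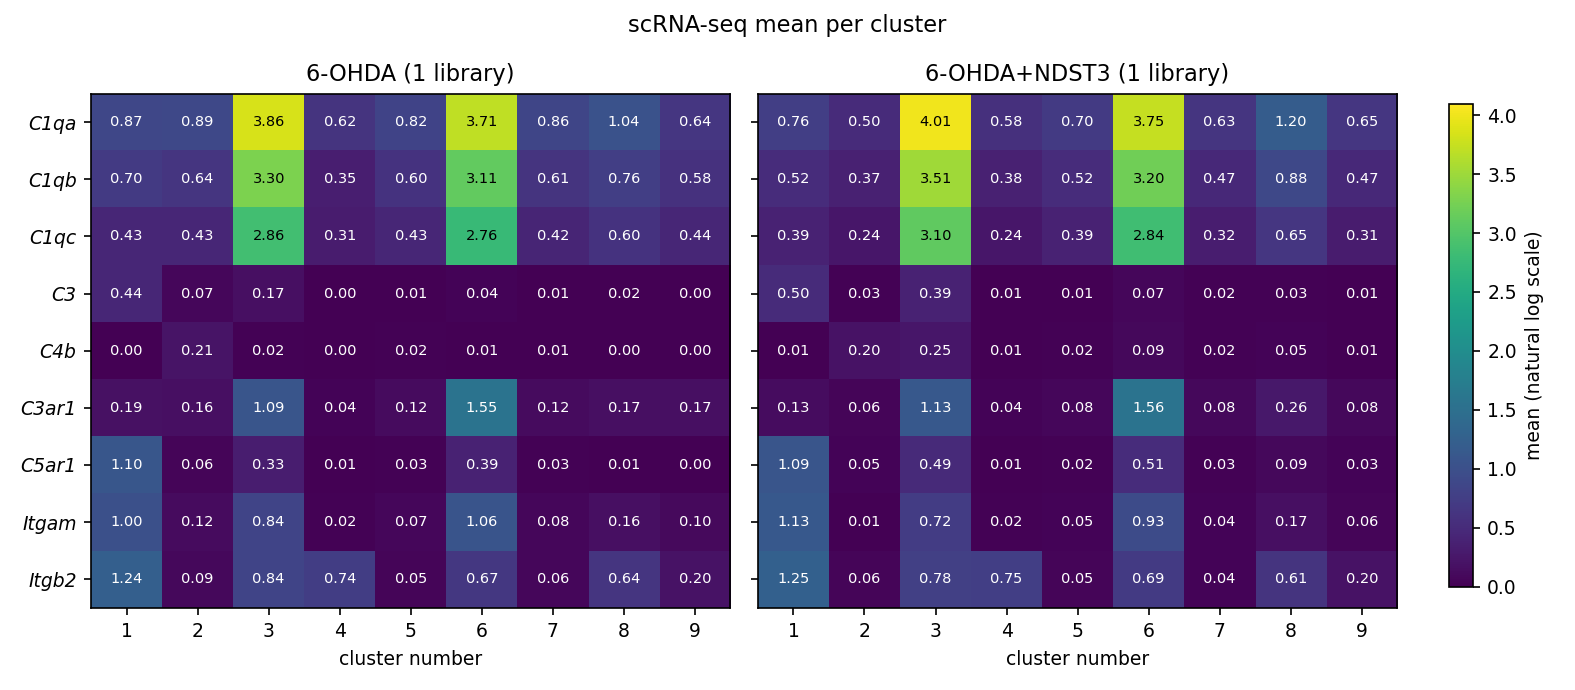
Mean of each complement gene (rows) in the 9 scRNA-seq clusters (columns) of the 6-OHDA library and the 6-OHDA+NDST3 library, on a natural log scale shown by colour and printed in each cell. The C1q genes are bright in clusters 3 and 6, from 2.76 to 4.01, and C5ar1, C3 and Itgb2 are highest in cluster 1.

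Across the 18 cluster means, which share 2 libraries and 9 clusters, the gene with the pattern most like that of each C1q gene, among 4645 genes outside the lists with a mean of at least 0.5 in 1 cluster, was Trem2, a microglial lipid receptor (Pearson r = 0.995 for C1qa, 0.996 for C1qb and 0.995 for C1qc). It was followed by Fcgr1 and Tafa2 for C1qa and C1qc and by Grn and Fcgr1 for C1qb. C3ar1 was most like Tbxas1, Il1a and Slc7a8 (r = 0.997, 0.996 and 0.995), and C5ar1 was most like Clec4a3, Hcar2 and Lst1 (r = 0.996, 0.99 and 0.99). Itgam was most like Skap2, Nfe2l2 and Spi1, which encodes PU.1 (r = 0.983, 0.982 and 0.98), and Itgb2 was most like Lcp2, Lrrfip1 and Rhog (r = 0.963, 0.963 and 0.962). C3 was most like Il1rn, Lilr4b and Lilrb4a (r = 0.968, 0.962 and 0.961). C4b had the weakest likeness, to Itm2c, Gaa and Galk2 (r = 0.815, 0.805 and 0.801). The correlations are across clusters and are given as descriptions. Of the other complement genes, 48 of the 53 were listed there and 23 reached a mean of 0.1 in some cluster, with the highest mean of C1s1, Colec12, Serping1 and Vtn in cluster 5, of C2, Itgax and C1qbp in cluster 3 and of Cfp in cluster 1.

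H3K27ac, the histone mark of active promoters and enhancers, was profiled by CUT&RUN in 2 libraries per group, which the deposited table joins in 1 column per group, so the signal has no replicate spread. Only C4b of the 9 genes had regions. At the region 162 bases upstream of its start (chr17:34962983-34963083 as deposited) the signal was 3.93 in sham, 8.45 in 6-OHDA and 27.5 in 6-OHDA+NDST3. At the region 588 bases upstream (chr17:34963409-34963509) it was 4.73, 7.95 and 9.01. Both regions rank sham, 6-OHDA, 6-OHDA+NDST3 in rising order, and the near one differed more. With a pseudocount of 1 the near region was 1.92-fold higher in 6-OHDA than in sham and 3.01-fold higher in 6-OHDA+NDST3 than in 6-OHDA, where 11.1% of 11326 regions were at least 2-fold higher. The far region was 1.56-fold and 1.12-fold higher in the same comparisons. The group medians over all regions were 15.04 in sham, 16.4 in 6-OHDA and 22.9 in 6-OHDA+NDST3, so the NDST3 column was higher for the table as a whole. After each column was divided by its median, the log2 ratio of 6-OHDA+NDST3 to 6-OHDA was 1.13 at the near region and -0.27 at the far one. While the H3K27ac signal of C4b was highest in 6-OHDA+NDST3, its RNA was highest in 6-OHDA (665 CPM against 299.95 and 313).

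Coordinates of both promoter tables are those deposited. The labels name mm10, but only 2.31% of the CUT&RUN regions lay within 50 bases of their stated distance from the gene on GRCm38 models, so no sequence was read at them. The 3582 ATAC-seq regions named 5 other complement genes, among them C5ar2, with a signal of 15.1 in sham, 43.8 in 6-OHDA and 31.6 in 6-OHDA+NDST3 (1 library each, so without a replicate check). This was 2.90-fold higher in 6-OHDA than in sham, a ratio of at least 2 that 6.19% of 3537 regions reached. Cfi stood at 4.09, 6.50 and 14.1, and Cfb at 43.1, 51.2 and 64.2, in sham, 6-OHDA and 6-OHDA+NDST3.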

How the data were processed

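RNA-seq, H3K27ac CUT&RUN, ATAC-seq and scRNA-seq tables of mouse brain were used as deposited. Per the study's methods, RNA-seq reads (stranded mRNA library) were trimmed with Trimmomatic, aligned to mm10 with HISAT2 and quantified with StringTie, and scRNA-seq reads were processed with Cell Ranger and Seurat (LogNormalize); the CUT&RUN processing is not given in the sources used here. The authors deposited read counts, FPKM and TPM per gene. The authors deposited scRNA-seq means per cluster, taken here as natural log values of normalised counts, although the column names call them counts; 26 rows whose symbols had been turned into dates were left out of 26650. The authors deposited CUT&RUN and ATAC-seq tag signal per region, scaled in a way not given in the sources used here. Columns mapped to no sample numbered 0.

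Counts were tested with edgeR 4.0.16 (glmQLFit, glmQLFTest, TMM factors, filterByExpr, 19300 of 20328 genes tested, 2 residual degrees of freedom) in R 4.3.3, in 1 fit over all 5 libraries, with Benjamini-Hochberg adjustment. CPM values are TMM-scaled. The step was tested on simulated data with changes set in the 6-OHDA library. By adjusted p it recovered 28% of 2-fold changes in 6-OHDA against sham and 38% in 6-OHDA+NDST3 against 6-OHDA. For 4-fold changes it was 66% in both. The study's rule recovered 42% and 44% of 2-fold changes, with 361 and 330 false calls among 19151 genes. Alternatives were limma 3.58.1 (FPKM on a log2 scale, pseudocount 1 or 0.1) and DESeq2 1.42.0 (shares over the 16781 genes with an adjusted p in both comparisons of 6-OHDA+NDST3), beside other scalings, filters, a replicate block and leaving out libraries. Values from 1 column per group were given as differences or ratios with no test (pseudocount 1 for CUT&RUN). Every gene had at least 1 count in each library, which had 51003699 to 70533326 counts. Of the members, C5ar1 had the lowest counts, 55 to 250, so counting error was largest for it. The next lowest count was 228, for C3ar1 in sham replicate 2.

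The 9 members and all lists were chosen with earlier results of these data known. Of the other pathway genes, the text names the 12 with the largest absolute log2 fold change in 6-OHDA against sham at a mean of at least 1 CPM, those called by adjusted p in 6-OHDA+NDST3 against 6-OHDA, and subunit partners of the members; for likeness, the 3 genes of highest Pearson r per member. Some genes, and 1 narrower set of microglia markers, are not reported here. Genes named beyond this rule, and regions, were chosen after their values were seen.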

Additional observations from a re-analysis of the deposited data

How the results depend on the processing

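In 6-OHDA against sham, the 9 members called by adjusted p stayed at 9 under every other scaling, filter and tool and without either 6-OHDA+NDST3 replicate, and ranged from 0 to 9 over leaving out each library; the other pathway genes called, 25, ranged from 0 to 26, and by the study's rule from 17 to 26. With the single 6-OHDA library and 1 sham library left, the lone samples are assumed to vary like the other group. In those fits calls by adjusted p were lost over all genes as well. In 6-OHDA+NDST3 against 6-OHDA the members called, 0, became 8 with DESeq2 and 1 with limma on log2(FPKM + 1), and ranged from 0 to 2 over leaving out each library; by the study's rule, 7, from 4 to 8. The other pathway genes called, 8, became 19 with DESeq2 (31.4% of all genes) and 0 with only the 2 groups compared, and ranged from 0 to 16. In 6-OHDA+NDST3 against sham the members called, 0, became 7 with DESeq2 and ranged from 0 to 1; the other pathway genes called became 7 with DESeq2, and by the study's rule, 6, they became 1 with limma on log2(FPKM + 1) and ranged from 3 to 10. The cause of these changes was not tested. The members' log2 fold changes kept their direction under every alternative, except C5ar1 against sham, which became -0.17 without 6-OHDA+NDST3 replicate 2 and ranged up to 0.77 over leaving out each library.

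The labels do not pair the replicate numbers, and the deviations of same-numbered sham and 6-OHDA+NDST3 libraries correlated at -0.432. With the replicate number as a block, 7 members were called in 6-OHDA against sham (9.31% of all genes) and 0 in both other comparisons, and the other pathway genes called became 9 and 0 in the comparisons with 6-OHDA, and 9 by the study's rule in 6-OHDA+NDST3 against 6-OHDA. With the numbers crossed, an alternative chosen after seeing the data, the replicate block called 8 members in 6-OHDA+NDST3 against 6-OHDA, 8 against sham, and 17 and 8 other pathway genes, where it called 24.8% and 6.19% of all genes.

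Per microglia marker, members higher in 6-OHDA than in sham, 9, became 1 with Fcrls alone as the denominator, members higher in 6-OHDA+NDST3 than in 6-OHDA, 0, became 7 with Fcrls, 5 with Gpr34 and 3 with Cx3cr1 alone, and those higher in 6-OHDA+NDST3 than in sham, 8, became 2 with Fcrls alone. Replicate libraries lay far apart for Fcrls, at 18.4 and 147 CPM in 6-OHDA+NDST3. The FPKM order of the C1q genes was the same with TPM. A pseudocount of 0.1 left both C4b H3K27ac regions in the same direction; division by the column median turned the region 588 bases upstream to -0.27 in 6-OHDA+NDST3 against 6-OHDA. The alternatives for ATAC-seq signal gave no value, because no region was assigned to a member.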
